A study of Mus musculus with 6 samples.

Results

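The Wnt and planar cell polarity genes were followed in the cerebellum of newborn mice whose dams had been fed folic acid (FA), the synthetic form of folate, at a control or a 10-fold higher dose. They were chosen by name: every probe that the array design assigns to a Wnt, Frizzled (Fzd), dishevelled (Dvl), Vangl, Celsr, Prickle, Axin or Tcf7 gene, or to Lrp5, Lrp6, Ctnnb1 or Lef1. The names matched 69 probes of 50 genes, of 55681 probes and 34797 genes on the array. C57BL/6J dams, an inbred strain, received an amino acid-based purified diet that held 2 mg FA per kg, or 20 mg per kg, from 1 week before mating and through pregnancy, and all groups shared this base diet. RNA of pups at postnatal day 1 was labelled with 1 dye and hybridized to 6 Agilent arrays with probes of 60 bases, whose brightness is the signal read here. Each array held a pool of 3 pups of 1 sex, each pup from a different dam. For each sex there was 1 array at 2 mg FA and there were 2 arrays at 20 mg FA, called replicates 1 and 2. The 20 mg extraction was repeated with pups of another batch, and which replicate is the repeat is not given. The pool is therefore the unit of replication, and the spread between pools is known at 20 mg only. The titles and the study's methods name the cerebellum as the tissue, but the tissue field of the labels reads whole brain.

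Wnt proteins are secreted ligands that bind Frizzled receptors together with the co-receptors Lrp5 or Lrp6. Dishevelled proteins relay the signal inside the cell, where Axin and its partners otherwise mark beta-catenin, the product of Ctnnb1, for destruction, and spared beta-catenin acts in the nucleus with the Tcf and Lef factors. The planar cell polarity branch shares Frizzled and dishevelled but uses the membrane proteins Vangl and Celsr and the cytoplasmic Prickle to orient cells within a sheet. In mice Wnt1 is required to form the midbrain and cerebellum, and loss of Vangl2 leaves the neural tube open.

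One array stood apart from the others. On the array of female 20 mg replicate 2, 23.3% of probes were well above background by the scanner software's flag, against 51.1 to 71.9% on the other 5, and its mean Spearman correlation with the others was 0.649, against 0.859 to 0.889. Slide and scan day also differed between arrays. Both 2 mg arrays and female 20 mg replicate 1 lay on the same slide, female 20 mg replicate 2 and male 20 mg replicate 1 shared another slide scanned on an earlier day, and male 20 mg replicate 2 lay on a slide of its own. For males, slide and dose therefore cannot be told apart. Values below are log2 processed signals after quantile normalization over the 6 arrays, with a floor of 3.32, and a difference is always 20 mg minus 2 mg of the same sex unless stated otherwise. A gene is given by its brightest probe unless another probe is named, and signals of different probes are not compared with each other.

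Most of the genes gave a signal. At least 1 of the 6 arrays was well above background for 46 of the 50 genes, and these 46 (62 probes) entered the linear model in limma, which needed 2 such arrays. Well above background on every array were 19 of the 50 genes (38.0%), against 29.9% of all genes. Leaving female 20 mg replicate 2 aside, 39 (78.0%) were so on the other 5 arrays, against 54.4% of all genes. The ligands Wnt2, Wnt2b, Wnt3a and Wnt8a were not well above background on any array. On female 20 mg replicate 2 the flag was set for 19 of the 50 genes, and on each of the other arrays for 41 to 46.

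**Figure D1:**
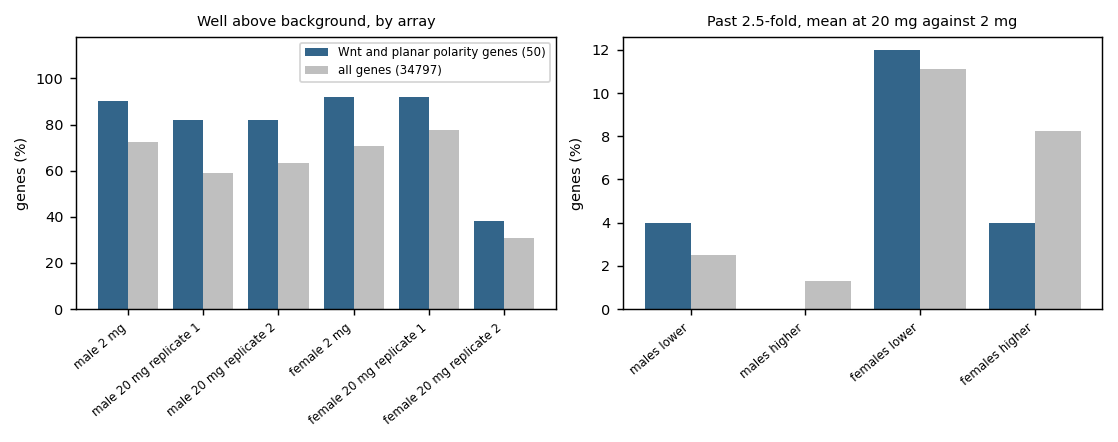
Bars give the percentage of the 50 Wnt and planar cell polarity genes (blue) and of all 34797 genes (grey), each by its brightest probe. Left, genes well above background on each array, where female 20 mg replicate 2 has the shortest bars. Right, genes past 2.5-fold by the mean at 20 mg against 2 mg, with the variation filter, where the genes lie at 4.0, 0, 12.0 and 4.0% against 2.51, 1.31, 11.1 and 8.22% of all genes.

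By the rule of at least 2.5-fold (1.32 on the log2 scale) between the mean at 20 mg and the 2 mg array, after the filter on variation that the study used, 2 of the 50 genes were lower in males, Axin2 and Wnt16, against 2.51% of all genes, and 0 were higher, against 1.31%. In females 6 were lower, Axin2, Dvl2, Dvl3, Fzd2, Fzd7 and Tcf7, against 11.1% of all genes, and 2 were higher, Wnt2b and Wnt6, against 8.22%. The shares of 4.0% lower in males and 12.0% lower in females were close to those of all genes, and that of 4.0% higher in females was below it. Only 15 of the 50 genes passed the variation filter. In limma no probe of these genes had an adjusted p under 0.05 in males, females, both sexes together or the difference between the sexes, and the same held for 0% of the 37211 probes fitted. The smallest adjusted p was 1 in each of these 4 comparisons. At an unadjusted p under 0.05, 1 of the 62 probes was found in each comparison, against 0.199, 0.433, 0.39 and 0.137% of all probes fitted. With 2 residual degrees of freedom the median standard error of a difference within a sex was 1.64 on the log2 scale, so the number of arrays limits every value here, and the lone array at 2 mg is assumed to vary like those at 20 mg.

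The 2 pools at 20 mg often differed from each other as much as from the 2 mg pool. They were at least 2.5-fold apart for 14 of the 50 genes in males (28.0%, against 29.1% of all genes) and for 26 in females (52.0%, against 48.9%). The difference between doses exceeded the SD of the 20 mg pools for 21 of the 46 fitted genes in males (45.7%, against 33.5%) and for 14 in females (30.4%, against 29.7%). By brightest probe, 1 gene was past 2.5-fold lower on each female 20 mg array taken alone, Dvl3, against 1.26% of all genes. In males 1 was, Axin2, against 1.39%, while 0 were higher in either sex, against 0.457% in females and 0.273% in males. Over all 69 probes, 3 were lower in this way in females (4.35%, against 1.28% of all probes) and 4 in males (5.8%, against 1.29%). The female ones were of Dvl3 and, with more than 1 probe, Vangl2, both singled out below with their earlier values known. Those in males were of Axin2, Fzd5, Tcf7l2 and Vangl2, with Fzd5 at the floor on both male 20 mg arrays. Probes of 1 gene are not independent, and a difference between these shares was not tested. The median difference over the 46 fitted genes was -0.10 in males and -0.14 in females (all genes fitted, -0.07 and -0.17). The female median was 0.51 after a shift to a common 75th percentile in place of quantile normalization, which moved the median of all fitted probes from -0.21 to 0.45. Array by array, the medians were 0.31 on male 20 mg replicate 1 and -0.16 on male 20 mg replicate 2, and 0.10 and 0.16 on female replicates 1 and 2. Of the single 20 mg arrays, female 20 mg replicate 2 had 15 genes lower and 11 higher by 2.5-fold (24.1 and 24.3% of all genes), while female 20 mg replicate 1 had 1 lower and 0 higher (2.39 and 1.25% of all genes).

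**Figure D2:**
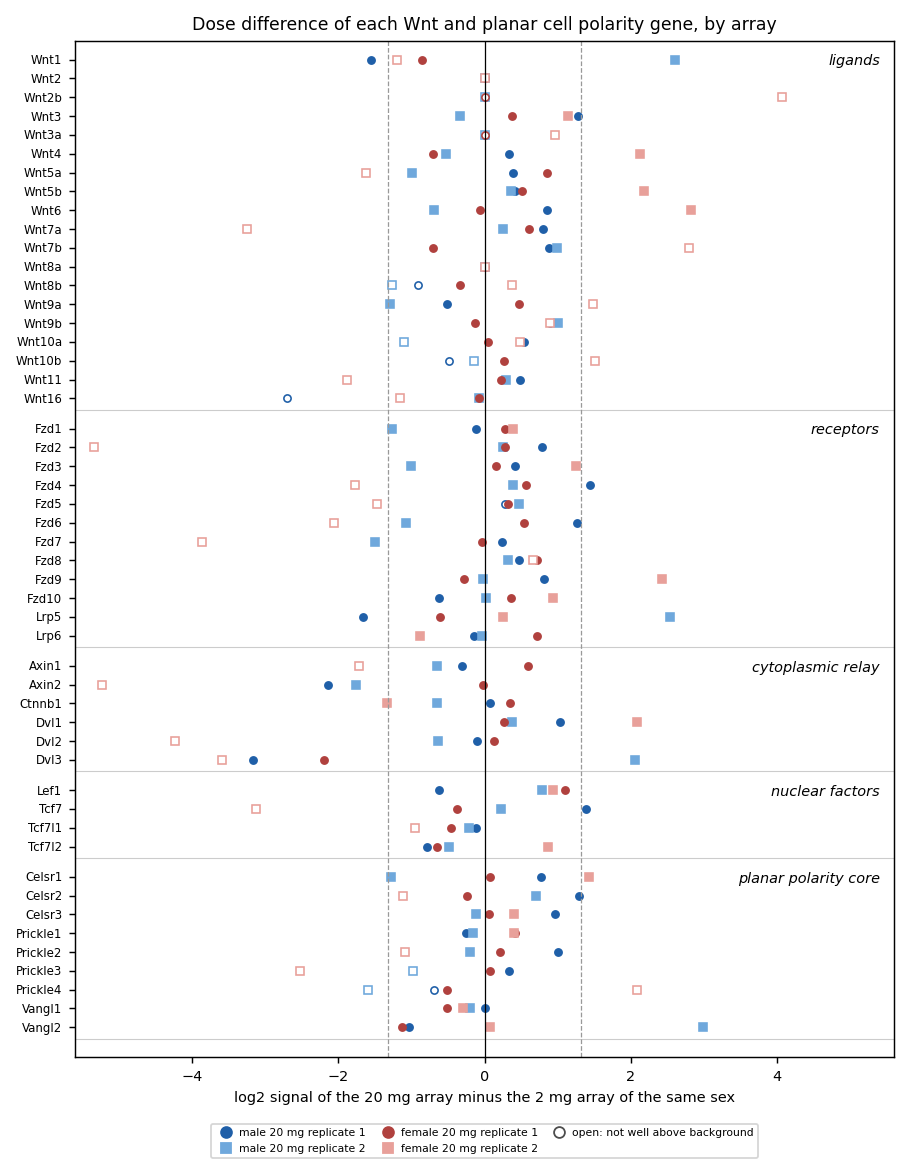
Each point is the log2 signal of a 20 mg array minus that of the 2 mg array of the same sex, for the brightest probe of each of the 50 genes, grouped by role. Filled points were well above background, open points were not, and dashed lines mark 2.5-fold. Most points of female 20 mg replicate 2 (light red squares) far from 0 are open, and for Dvl3, Lrp5, Vangl2 and Wnt1 the male replicates lie on opposite sides of 0.

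Dvl3 and Vangl2 were singled out with their earlier values in these data known, so what follows for them is a description. Dvl3 encodes a dishevelled relay protein shared by the beta-catenin and polarity branches. Its probe lies at chr16:20531470-20531529 (mm9, plus strand). The Vangl2 membrane protein is a core planar polarity component, and the array carries 3 probes for it on the minus strand of chromosome 1: a first probe at chr1:173934594-173934653, a middle probe at chr1:173934502-173934561, 32 bases downstream of it, and a distal probe at chr1:173931382-173931441, a further 3060 bases away. Exon and UTR annotation of mm9 was not used here. A stretch of 30 bases of each of these probes, with those of Axin2, Lrp5 and Wnt1 described below, is printed because the arrays disagreed along with the base content of the probes. Capitals mark runs of 3 or more C.
Dvl3: CCCCCaggagCCCCtccagggcgtgacctg
Vangl2, first probe: ttctgccagtcctacttcctcttgctcttg
Vangl2, middle probe: tctCCCCtcttcctcagtttttCCCatctg
Vangl2, distal probe: cttcttgaatctcttccaagtgagattgta
Axin2: caataattattgtaattaagagatgtagcc
Lrp5: cctcggccgtccaCCCggCCCtgctgcctc
Wnt1: ctcctcgCCCCCaccaatgtagtatcttcc

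Dvl3 was lower at 20 mg in females and split in males. In females it read 11.87 at 2 mg, and 9.67 and 8.28 on replicates 1 and 2 at 20 mg, the last of which was not well above background. Both female 20 mg arrays were thus below the 2 mg array, with a mean of 8.97 ± 0.98 (SD, n = 2) and a difference of -2.90 (7.45-fold lower, limma unadjusted p = 0.0766, adjusted p = 1). In males it read 11.43 at 2 mg, 8.26 on replicate 1 and 13.48 on replicate 2. The male replicates stood on either side of the 2 mg array, and the mean difference was -0.56 (SE 1.56). Of the 6 female genes lower past 2.5-fold, Dvl3 was the only one still past it without female 20 mg replicate 2 (difference -2.11).

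The 3 probes of Vangl2 did not give 1 answer. In females the first probe read 9.98 at 2 mg, and 8.53 and 6.24 on replicates 1 and 2 at 20 mg, and the distal probe read 9.31, then 5.14 and 3.70. With both 20 mg arrays below the 2 mg array, the female differences were -2.59 and -4.88, although on replicate 2 neither probe was well above background. The middle probe, the brightest of the 3, read 9.36 at 2 mg, and 8.23 and 9.43 at 20 mg, so its 2 replicates lay on either side of the 2 mg array and its difference was -0.53. The distal probe had an unadjusted limma p of 0.032 in females and an adjusted p of 1. It was the 1 probe of the 62 under 0.05 in that comparison.

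In males the first Vangl2 probe read 9.33 at 2 mg, and 9.16 and 9.83 at 20 mg, a difference of 0.17. The distal probe read 8.99 at 2 mg, and 7.66 and 7.62 at 20 mg, so both replicates were past 2.5-fold lower. Their mean difference was -1.35, with an SD of 0.03 between them. On the middle probe the male values were 9.34 at 2 mg, and 8.30 and 12.31 at 20 mg, again on either side, with a mean difference of 0.97. As with Dvl3, replicate 2 was the high male array. Vangl1, the paralog of Vangl2, differed little between arrays on its brightest probe, which read 10.08, 10.09 and 9.88 in males and 10.29, 9.77 and 10.00 in females, in the order 2 mg, replicate 1, replicate 2.

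The C content of the probe moved with the differences, most of all on male 20 mg replicate 2 by the correlation over all fitted probes. Over all 37211 fitted probes the Spearman correlation between the percentage of C in a probe and the difference of this array from male 2 mg was 0.514, and over the 62 fitted probes of the Wnt and polarity genes it was 0.589. These points come from the same 2 arrays and are not independent. On male 20 mg replicate 1 and female 20 mg replicates 1 and 2 the correlation over all fitted probes was -0.036, -0.271 and 0.11. Over the 62 member probes it was -0.031, -0.125 and 0.046 on these arrays. The 11 member probes with at least 30% C had a median difference of 0.78 on male 20 mg replicate 2, and the other 51 had -0.16. The corresponding medians were -0.69 and 0.24 on male 20 mg replicate 1 and -0.32 and 0.16 on female 20 mg replicate 1. On female 20 mg replicate 2 they were 0.38 and -0.74. By this cut the other arrays also differed with C content, though their member correlations were weaker than on male 20 mg replicate 2. Dvl3, at 45% C and with the C runs shown above, stood at +2.05 on male 20 mg replicate 2, where the highest bin of C content over all fitted probes had a median of 2.05, and at -3.17 on male 20 mg replicate 1, where that bin had a median of -1.48. On male 20 mg replicate 2 the Lrp5 (33.3%), Wnt1 (26.7%) and middle Vangl2 (26.7%) probes stood at +2.54, +2.60 and +2.98, and the Axin2 probe (8.33%) at -1.76. Unlike Dvl3, these probes lay further from 0 than probes of like C content. Their bins had medians of 0.97 (Lrp5), 0.48 (Wnt1 and Vangl2) and -0.79 (Axin2), with upper quartiles of 1.54 for Lrp5 and 1.10 for Wnt1 and Vangl2. The brightest Prickle4 probe (35% C) stood at -1.59 on this array. After a loess correction of each array on C content, chosen after seeing the data, the male difference of Dvl3 was -0.95 and its female difference -2.56. The part of base content in each gene's value was otherwise not tested.

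**Figure D3:**
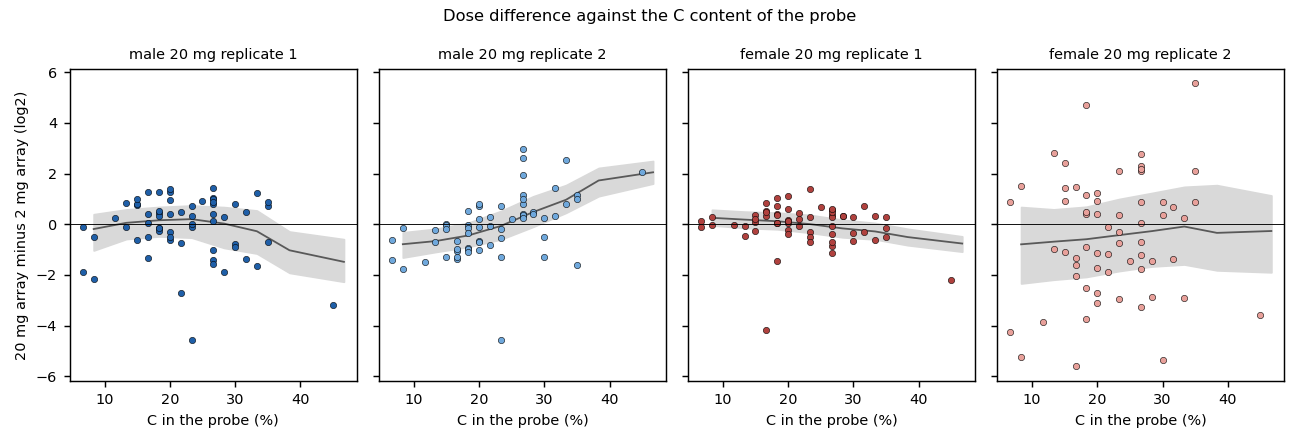
Each panel plots, for 1 of the 20 mg arrays, the log2 difference from the 2 mg array of the same sex against the percentage of C in the probe. Points are the 62 fitted probes of the Wnt and polarity genes, the line is the median and the band the interquartile range of all 37211 fitted probes in bins of C content. From the lowest to the highest bin the line rises from -0.79 to 2.05 on male 20 mg replicate 2 and falls from 0.26 to -0.76 on female 20 mg replicate 1, and on male 20 mg replicate 1 it falls to -1.48 in the highest bin.

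Among the 19 ligand genes, 15 were fitted and 4 were well above background on every array, Wnt3, Wnt4, Wnt5b and Wnt6. In males Wnt16 was past 2.5-fold lower, against 2.51% of all genes, and in females Wnt2b and Wnt6 were past it higher, against 8.22%. Wnt16 read 6.02 at 2 mg in males, and 3.32 (the floor) and 5.95 at 20 mg, so its difference of -1.39 came from replicate 1, and the other array was level with 2 mg. The female values were 6.33, then 6.25 and 5.17, the last not well above background. A second Wnt16 probe went the other way in males, with 3.94 at 2 mg and 4.95 and 4.74 at 20 mg, the latter pair not well above background. The Wnt2b call has no measured signal behind it, because the probe was at the floor on the 2 mg array and on replicate 1, and its 7.38 on female 20 mg replicate 2 was not well above background.

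Wnt6 read 6.87 in females at 2 mg, and 6.80 and 9.68 at 20 mg, a difference of 1.37 that came from replicate 2 alone. Its male values of 7.16, 8.02 and 6.47 lay on either side of 2 mg. For Wnt5b, a ligand mostly of the beta-catenin-independent branches, all 4 arrays at 20 mg were above the 2 mg array of their sex, with 8.21, 8.62 and 8.56 in males and 8.56, 9.07 and 10.75 in females. The female difference of 1.34 was past 2.5-fold but the probe did not pass the variation filter, and the male difference was 0.38 with an SD of 0.04 between the pools. Its limma unadjusted p was 0.439 over both sexes.

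Wnt1, the ligand of the midbrain-hindbrain border, read 9.50 in males at 2 mg, and 7.94 and 12.10 at 20 mg. The female values were 9.83, then 8.98 and 8.63, the last not well above background. The males thus split around the 2 mg array and both female arrays were lower, with differences of 0.52 and -1.03. A second Wnt1 probe was not well above background on any male array or at 2 mg in females, and it read 4.07 and 9.34 on the female 20 mg arrays, at least 6.25-fold above the female 2 mg array by the mean, a value set by replicate 2 (limma adjusted p = 1). Of the other ligands, Wnt7a, which granule neurons of the cerebellum release at their synapses, read 6.73, 7.53 and 6.99 in males and 6.56, 7.17 and 3.32 in females, the last at the floor. The remaining fitted ligands (Wnt3, Wnt4, Wnt5a, Wnt7b, Wnt8b, Wnt9a, Wnt9b, Wnt10a, Wnt10b and Wnt11) were not past 2.5-fold in either sex.

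Among the 12 receptor genes, all were fitted and 0 were past 2.5-fold in males. In females 2 were lower, Fzd2 and Fzd7, against 11.1% of all genes. Both calls came from female 20 mg replicate 2. Fzd2 read 8.92 in females at 2 mg, and 9.20 and 3.58 at 20 mg, where the last was not well above background, and the difference of -2.53 was 0.28 without that array. In males it read 8.93, then 9.72 and 9.18, slightly higher on both. A second Fzd2 probe was lower on both male arrays, with 5.73, then 4.97 and 4.90, the latter pair not well above background. Fzd7 read 7.19 in females, then 7.15 and 3.32, and 7.20, 7.44 and 5.70 in males. Without female 20 mg replicate 2, the female arrays of Fzd7 at 2 and 20 mg were thus almost level.

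A second probe of Fzd5 was the 1 probe of the 62 under an unadjusted p of 0.05 in males, over both sexes and in the difference between the sexes. It read 7.88 on the male 2 mg array and 3.32, the floor, on both male 20 mg arrays, and 4.06, 3.74 and 3.32 in females. Only the male 2 mg array was high, and of the others female 20 mg replicate 1 alone was well above background. The male 2 mg signal was at least 7.86-fold above the 20 mg arrays (limma unadjusted p = 0.000957, adjusted p = 1). The SD of the male 20 mg arrays was 0 only because both were raised to the floor. This p therefore sets 1 high array against a constant and does not rest on a measured spread of the male pools. The brighter probe of Fzd5 read 4.90, 5.18 and 5.37 in males and had no such pattern, its male difference being 0.38.

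Neither co-receptor, Lrp5 or Lrp6, was past 2.5-fold in either sex. Lrp5 read 10.59 in males at 2 mg, and 8.93 and 13.13 at 20 mg, so that its male mean difference of 0.44 lay between replicates 4.20 apart. In females it read 10.78, then 10.16 and 11.03. Lrp6 was far more even in males on its brightest probe, with 11.38, 11.23 and 11.34, and read 10.89, 11.60 and 10.01 in females. A second Lrp6 probe was higher on both male 20 mg arrays, with 5.79, then 7.02 and 6.57, a difference of 1.01. Fzd8 was higher on all 4 arrays at 20 mg, by 0.32 to 0.72, though on female 20 mg replicate 2 it was not well above background. The other Frizzled receptors were not past 2.5-fold in either sex by the mean. Of the receptors well above background on every array, Fzd9 had the largest difference on a single female array, 10.64 at 2 mg against 10.36 and 13.07 at 20 mg.

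The cytoplasmic relay group of 6 genes, all fitted, held 1 gene past 2.5-fold lower in males, Axin2, against 2.51% of all genes. It held 3 lower in females, Axin2, Dvl2 and Dvl3, against 11.1% of all genes, and a difference between these shares was not tested. Axin2 is a scaffold of the destruction complex and itself a well-known target of beta-catenin. By brightest probe it was the only gene of the 50 past 2.5-fold on both male arrays. Other probes of Fzd5, Tcf7l2 and Vangl2 were also past it, lower, on both. Axin2 read 8.65 at 2 mg in males, and 6.51 and 6.90 at 20 mg, a difference of -1.95 (3.86-fold lower, SD 0.27 between the pools, limma unadjusted p = 0.412, adjusted p = 1). The female values were 8.55, then 8.53 and 3.32, the last at the floor and not well above background, so that replicate 1 did not follow the males and the female difference of -2.63 was -0.02 without replicate 2. A second Axin2 probe, at chr11:108803927-108803986 (mm9) against chr11:108812034-108812093 for the brighter probe, read 4.77, 4.88 and 5.92 in males and 4.16, 4.53 and 3.47 in females. Its male difference was 0.63, opposite in sign to that of the brighter probe. This second probe was not well above background on male 20 mg replicate 1, female 2 mg or female 20 mg replicate 2.

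Dvl2 read 8.91 in males, then 8.80 and 8.27, and 8.85 in females, then 8.97 and 4.62. The low female value was not well above background, and the female difference of -2.05 became 0.13 without it. A second Dvl2 probe had 3.93 in females, then 4.98 and 8.63, with only replicate 1 of these well above background, so the high value of replicate 2 has no measured signal behind it. Dvl1, the remaining dishevelled gene, was higher on all 4 arrays at 20 mg and well above background throughout. It read 11.28 at 2 mg in males, then 12.30 and 11.65, and 11.18 in females, then 11.45 and 13.27. Its differences of 0.70 in males and 1.18 in females had an unadjusted limma p of 0.23 over both sexes. The 3 dishevelled genes therefore did not share a direction.

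Ctnnb1, which encodes beta-catenin, read 13.24 in males, then 13.31 and 12.59, and 12.83 in females, then 13.17 and 11.50. In both sexes the 20 mg arrays lay on either side of the 2 mg array, and the differences were -0.29 and -0.50. Axin1, the constitutive counterpart of Axin2, read 9.18, then 8.87 and 8.52, in males and 8.63, then 9.23 and 6.92, in females, the last not well above background. Both male arrays were below 2 mg, by a mean difference of -0.48, and the female arrays lay on either side.

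**Figure D4:**
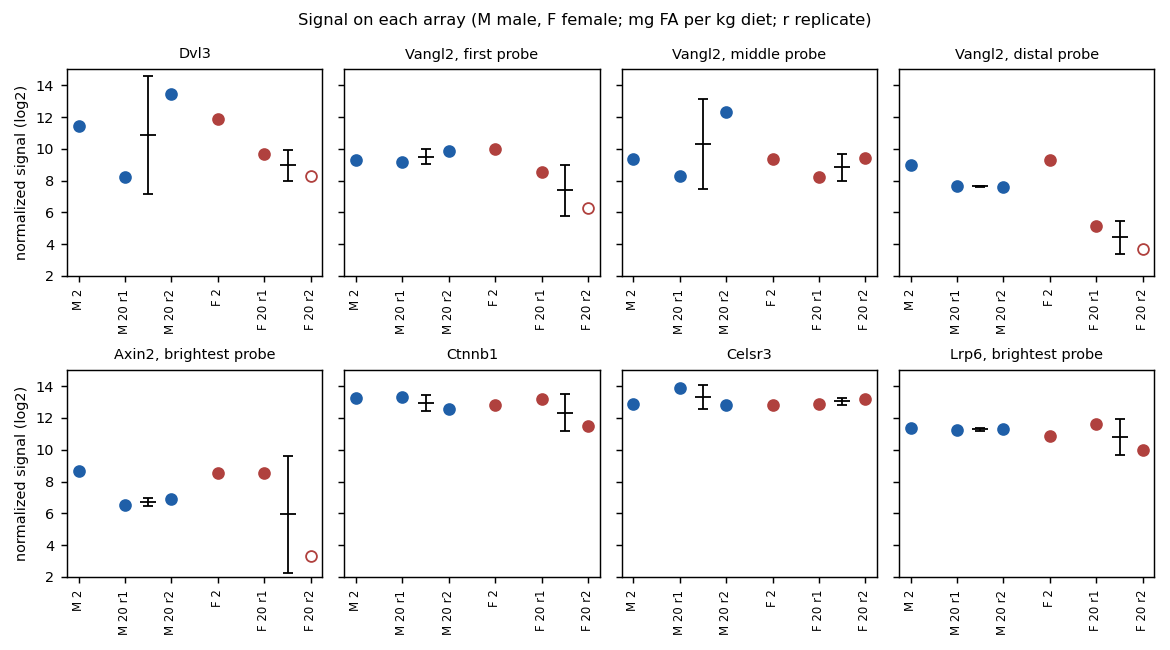
Normalized log2 signal on each of the 6 arrays for 8 probes, males in blue and females in red, with filled points well above background and open points not. Horizontal marks and bars give the mean and SD of the 2 arrays at 20 mg. Dvl3 and the distal Vangl2 probe are lower on both female 20 mg arrays, Axin2 on both male 20 mg arrays, and Ctnnb1, Celsr3 and Lrp6 vary less.

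Of the 4 nuclear factors, all fitted, only Tcf7 was past 2.5-fold, lower in females, against 11.1% of all genes. It read 6.44 at 2 mg, and 6.07 and 3.32 at 20 mg, the last at the floor, and 5.97, then 7.35 and 6.19, in males. Both female arrays were lower and both male arrays higher, with differences of -1.75 and 0.81. Tcf7l1, mainly a repressor, was lower on all 4 arrays at 20 mg, with 7.60, 7.48 and 7.39 in males and 7.98, 7.53 and 7.03 in females, the last not well above background. The differences were small, -0.16 and -0.71.

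Tcf7l2 read 10.38, 9.60 and 9.89 in males and 9.87, 9.22 and 10.74 in females on its brightest probe. The array has 3 probes for it, and their male differences ran from -1.64 to 0.26 while the female ones ran from 0.11 to 0.40. On the probe at -1.64 both male arrays were past 2.5-fold lower, at 7.88 and 8.35 against 9.76 at 2 mg. Lef1 read 11.21 in males, then 10.59 and 12.00, and 9.87 in females, then 10.97 and 10.81. Both female arrays were higher, by a mean difference of 1.02 with an SD of 0.11, but a second Lef1 probe read 6.28 in females, then 7.66 and 3.32, the last not well above background, a difference of -0.79. Lef1 was also the 1 gene of the 50 past 2.5-fold between the sexes at 2 mg, with the female array 1.34 below the male, against 1.85% of all genes, and its second probe differed in the same direction, 6.28 against 7.67. There is no replicate at 2 mg to set this against.

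None of the 9 planar polarity core genes was past 2.5-fold in either sex by its brightest probe, and 5 of them were well above background on every array. Celsr1 to Celsr3 encode large cadherins that link neighbouring cells. Celsr1 read 10.71, 11.48 and 9.43 in males and 10.33, 10.41 and 11.76 in females. Celsr3, a gene known for guiding axon tracts, read 12.90, 13.86 and 12.79 in males and 12.81, 12.87 and 13.21 in females. Neither had both male arrays on the same side of 2 mg, and both female arrays were above it for each, by mean differences of 0.75 and 0.23.

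On its brightest probe the direction differed between the sexes for Celsr2. This probe read 9.19 in males at 2 mg, then 10.48 and 9.90, and 9.79 in females, then 9.55 and 8.67. Both male arrays were higher and both female arrays lower, with differences of 0.99 and -0.68, and the last female value was not well above background. The 4 Prickle genes had differences between -1.23 and 0.79. Of them, Prickle1 was well above background on every array and had the closest replicates, with 11.68, 11.43 and 11.52 in males and 11.81, 12.22 and 12.21 in females. For Prickle3 and Prickle4 several arrays at 20 mg were not well above background.

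Probes of the same gene often disagreed. Of 14 genes with at least 2 fitted probes, the differences had 1 sign over all of a gene's probes for 6 in males and 8 in females. All 4 arrays at 20 mg lay on the same side of their 2 mg array for 6 of the 50 genes (12.0%, against 9.4% of all genes): Dvl1, Fzd8 and Wnt5b were higher, and Axin2, Tcf7l1 and Wnt16 lower. Some of these gaps were close to none: Axin2 stood at -0.02 on female 20 mg replicate 1, and Wnt16 at -0.07 there and on male 20 mg replicate 2. On female 20 mg replicate 2, Axin2, Fzd8, Tcf7l1 and Wnt16 were not well above background. The dose comparisons of the sexes do not share an array, but within a sex both 20 mg arrays are set against the same lone 2 mg array.

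Other genes of the pathway were counted by the same fold rule. Of 57 listed modulators, receptors and effectors outside the 50, 54 were fitted, 1 was past 2.5-fold lower in males and 0 higher, and 16 were lower and 3 higher in females. The 16 are 28.1% of the list, against 11.1% of all genes, and a difference between these shares was not tested. None of the 16 was well above background on female 20 mg replicate 2, and on replicate 1 taken alone only Lgr4, itself not well above background there, was past 2.5-fold. The smallest adjusted limma p was 1 and 0 had an unadjusted p under 0.05. In females the medians over the list were 0.20 on replicate 1 and -1.15 on replicate 2. Of the extracellular inhibitors, Wif1 read 9.34 in females at 2 mg, then 8.58 and 3.32, and Sfrp2 read 9.91, then 8.90 and 6.90. Both were lower on each female array, with the larger difference on replicate 2. The median over the 13 listed inhibitors was 0.18 on female 20 mg replicate 1 and -1.26 on replicate 2. Lgr4, a receptor of R-spondins, which enhance Wnt signals, read 6.95, then 3.32 and 4.33, in females and 6.58, then 4.98 and 5.83, in males, lower on all 4 arrays at 20 mg. Neither female 20 mg array was well above background for it, so the female 2 mg signal was at least 1.815-fold above them (limma adjusted p = 1). Ptk7, a receptor of the polarity branch, was lower on both female arrays (9.61, then 8.47 and 7.66) and split in males (9.27, 9.47 and 11.42). The 3 genes higher in females were Rspo3, Znrf3 and Dact2, and only Rspo3 was well above background on every array. Rspo3 read 8.09, then 9.28 and 10.15, in females, higher on both, and 7.32, then 8.27 and 5.70, in males.

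Markers of other cell types differed between the arrays. All 10 cerebellar markers were fitted, 7 were well above background on every array and 0 were past 2.5-fold. The mean log2 signal of the list ran from 10.23 to 11.40. Of 7 choroid plexus genes, 6 were well above background on every array. Their mean was 8.20 on the female 2 mg array, 10.46 and 9.84 on the female 20 mg arrays and 9.34 to 9.86 in males, so the female 2 mg array was lowest. Their median difference in females was 2.52. By the fold rule with the variation filter 2 were higher in females, Aqp1 and Ttr, against 8.22% of all genes. Ttr, the main secreted protein of this tissue, read 11.21 at 2 mg and 16.16 and 14.59 at 20 mg.

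Forebrain genes were also detected, and the list as a whole varied between arrays. The mean of the 8 forebrain markers was 7.22 in males at 2 mg, then 8.87 and 6.91. In females it was 8.59, then 9.49 and 6.17, so the female 20 mg arrays bracketed the range of this list. Past 2.5-fold were 2 genes higher in males, against 1.31% of all genes, and 2 lower in females, against 11.1%. A difference between these shares was not tested. The means of the 6 meningeal and 5 red blood cell markers ran from 10.18 to 10.97 and from 9.47 to 10.44. None of them passed the fold rule with the variation filter, though Foxc1 was 2.71-fold lower in males and Col1a2 2.51-fold lower in females. In pooled tissue fewer cells of a type and less RNA per cell cannot be told apart, and the part of these cell types in the Wnt and polarity values was not tested.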

How the data were processed

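Per the labels and the study's methods, the authors scanned the arrays and extracted intensity values with Agilent Feature Extraction 10.7.3.1, which subtracts background. The log2 values in the authors' deposited table were quantile normalized with a floor, and served only as an alternative. Here, from the scanner files, outlier-flagged spots were dropped, spots of a probe averaged, and the log2 processed signals quantile normalized over 6 arrays and raised to 10 (linear scale) where lower. The fold rule needs a difference of means of at least 2.5-fold, a variance above the median of all probes (chi-square p at or under 0.05) and at most 50% missing values. limma 3.58.1 (R 4.3.3) fitted 4 groups of sex and dose with an empirical Bayes trend on 37211 probes well above background on at least 2 arrays, with Benjamini-Hochberg adjustment over all of them. It was tested on simulated data first. Samples were grouped by title, and 0 columns of other samples were used. Values on every array are given for the relay, nuclear, Vangl, Celsr, Lrp5 and Lrp6 genes, and for genes past 2.5-fold in a sex or with an unadjusted p under 0.05. Members, lists and alternatives were chosen with earlier results of these data known. All 50 symbols were found in a RefSeq gene table, used for names only. Probe positions and sequences are those of the array design (mm9).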

Additional observations from a re-analysis of the deposited data

Results flagged for a closer look

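For 6 of the 46 fitted genes (13.0%, against 9.59% of all genes fitted) both male arrays at 20 mg lay on one side of the male 2 mg array and both female arrays on the other side of theirs. The female minus the male difference on the log2 scale was -1.67 for Celsr2, 1.03 for Fzd1, 0.62 for Prickle1, -2.56 for Tcf7, 1.20 for Wnt10b and 1.88 for Wnt9a. The limma test of this difference gave an adjusted p of 1 for each, with unadjusted p from 0.395 (Celsr2) to 0.672 (Prickle1), so no difference between the sexes is shown. For Celsr2, Tcf7, Wnt10b and Wnt9a the signal on female 20 mg replicate 2 was not well above background. Wnt10b was not so on any male array either, so its male difference has no measured signal behind it. On a second Celsr2 probe the male 20 mg arrays lay on either side of the male 2 mg array.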

How the results depend on the processing

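No paired analysis was possible because the 2 mg groups have 1 array each and share fewer than 2 replicate numbers with the 20 mg groups. The limma count over the members stayed 0 wherever it was run, with an adjusted p of 1 with scan day or slide as a block in a fit of sex and dose, which gives no fold counts by sex. On the later scan day alone, no residual degrees of freedom remained and limma was not run.
Against 2 lower and 0 higher members in males and 6 lower and 2 higher in females, the shift to a common 75th percentile gave 0 lower in males, and 1 lower and 0 higher in females, with a female median of 0.51. The floor before normalization gave 10 lower and 1 higher in females and a median of -0.40. With normexp correction there was 1 lower in males and 1 higher in females. The authors' table gave a female median of -0.36. Leaving out 1 array of the 4 at 20 mg in turn gave 1 to 3 lower and 0 to 4 higher in males, 1 to 8 lower and 0 to 4 higher in females, and medians of -0.16 to 0.31 in males and -0.14 to 0.16 in females. The 1 lower and 0 higher in females came without female 20 mg replicate 2, and 1 lower in males and 8 lower and 4 higher in females without female 20 mg replicate 1. The 4 higher in males (Dvl3, Lrp5, Vangl2 and Wnt1) came without male 20 mg replicate 1. The later scan day alone gave 5 lower and 4 higher in males, 1 lower and 0 higher in females, and a female median of 0.10. The median over the probes of a gene gave 1 lower in males and a female median of 0.14. The loess on C content, added after seeing the data, gave a female median of 0.0784, and no filter on dim probes gave a female median of 0. The 19 genes well above background on every array had a female median of 0.65. These are the genes flagged on female 20 mg replicate 2, so this choice favours high values on that array, and nothing is drawn from it. Shares of all genes called under the settings above are not given here, so these counts are not results about the members alone. The female median of all fitted probes was -0.43 without female 20 mg replicate 1 and 0.45 with the 75th percentile shift.
Leaving out 1 array at a time, the female difference ran from -4.13 to 0.13 for Dvl2, from -5.18 to 0.28 for Fzd2 and from -0.0743 to 2.78 for Wnt6, with the reversed value of each without female 20 mg replicate 2. On the later scan day alone they reversed likewise (0.12, 0.28 and -0.0725), and for Dvl2 also with the median over its probes (0.41). The cause was not tested. Low signal on female 20 mg replicate 2, where 31 of the 50 members were not well above background, limits the female values.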
